A study of Mus musculus with 3 samples.

Results

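The genes described here encode the collagens, laminins and thrombospondins of the extracellular matrix, together with fibronectin (Fn1), Sparc and periostin (Postn). They were chosen by name and by the biotype protein_coding in the deposited annotation, which gave 62 of 56748 genes, or 62 of 21970 protein-coding genes. Of the 62 members, 44 are collagens, 11 laminins, 4 thrombospondins (Thbs1 to Thbs4, with no gene named Thbs5) and 3 the other matrix genes. RNA sequencing was done on adult cardiomyocytes (ACMs) isolated from the hearts of wild-type mice 8 to 10 weeks of age. The cells were plated for 3 to 4 h on a laminin coating with 5% FBS, then kept without serum, with 0.1% BSA and the contraction inhibitor BDM (10 mM) throughout. They received vehicle (0.1% BSA), human IL-6 at 10 ng/mL or mouse oncostatin M (OSM) at 10 ng/mL for 16 h, and RNA was pooled within each condition so that 1 library stood for each. No condition had a replicate, so every difference below is between libraries, and no test between the conditions was possible.

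Collagens are trimers of alpha chains whose helix is built on a Gly-X-Y repeat. Type IV collagen forms the network of basement membranes, the thin sheets that wrap each cardiomyocyte and underlie each vessel, and it is joined there by laminins, which are cross-shaped trimers of an alpha, a beta and a gamma chain held at the cell surface by integrins and dystroglycan. Fibrillar collagens of types I and III, made in the heart mainly by fibroblasts, build the interstitial fibres that accumulate in fibrosis, and thrombospondins are secreted glycoproteins that bind matrix and receptors and are known for their appearance in injured and overloaded tissue.

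The libraries held 24939980 counts with vehicle, 26362446 with IL-6 and 30773001 with OSM, of which the members took 0.117%, 0.119% and 0.0975%. Levels between genes are given as the deposited FPKM, which is per length, and differences as log2 ratios of TMM-scaled counts with 95% Clopper-Pearson intervals of the 2 counts, which cover counting error only. A member was called where its whole interval lay beyond 2-fold. The 10 cardiomyocyte markers had a summed FPKM of 11092 with vehicle, 11502 with IL-6 and 14967 with OSM. The markers went both ways with OSM against vehicle, where 0 of the 10 were called higher and 2 lower (Ryr2 and Ttn). These calls stood beside 3.74% and 5.43% of all genes compared, and the markers' median log2 fold change was 0.13. The 13 fibroblast markers summed to 6.62 FPKM with vehicle, 6.03 with IL-6 and 6.95 with OSM. Of these, Fbln1 had 269, 228 and 388 counts and Gsn 261, 233 and 230, while Mfap5 was at 0 in each library. In the same order, 12 endothelial markers summed to 10.1, 10.5 and 12.6 FPKM, and 10 smooth muscle and pericyte markers to 13.7, 13.7 and 16.1 FPKM. The 10 macrophage markers summed to 1.79, 1.25 and 2.10 FPKM. Of these, Csf1r reached 1.28, 1.06 and 1.21 FPKM, while C1qa, C1qb and C1qc were at 0 in each library. The 6 Schwann cell markers summed to 0.333, 0.197 and 0.0831 FPKM, and 7 epicardial and mesothelial markers to 0.532, 1.03 and 0.345 FPKM. In bulk RNA, fewer cells of a type and less RNA per cell cannot be told apart. Fold changes with OSM also moved with gene length, the median of protein-coding genes going from 0.47 in the shortest eighth to -0.56 in the longest (log2, against vehicle), so the running median of the protein-coding genes nearest in length, the length median, is given beside the members. For IL-6 against vehicle the same medians lay between 0.017 and -0.028.

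Genes of the basement membrane made up most of the members' FPKM. The 4 members with the highest FPKM in every library, Lamb2, Lamc1, Col4a2 and Col4a1, carried 78.5% of the members' summed FPKM with vehicle, 79.7% with IL-6 and 78.2% with OSM. The summed FPKM of all 62 members was 159.9 with vehicle, 160.3 with IL-6 and 147.1 with OSM. An FPKM of at least 1 was reached by 11 members with vehicle, 9 with IL-6 and 10 with OSM, whereas 25 members had under 10 counts in every library and 11 were at 0 in all of them. Those 11 were Col9a1, Col9a3, Col25a1, Col24a1, Col11a1, Col27a1, Col8a2, Col28a1, Col6a5, Col6a4 and Lama1, and a count of 0 allows up to 3 counts, or 0.120, 0.114 and 0.0975 CPM in the vehicle, IL-6 and OSM libraries. The balance between the families differed with OSM. Laminins held 61.5% of the members' FPKM with vehicle, 62.3% with IL-6 and 44.7% with OSM. Collagens held 34.2%, 34.0% and 44.9% in the same order, and thrombospondins 0.987%, 0.659% and 6.47%. These shares were not adjusted for gene length. With OSM against vehicle, the median of the length medians was -0.32 over the laminins compared, -0.22 over the collagens and 0.08 over the thrombospondins.

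**Figure D1:**
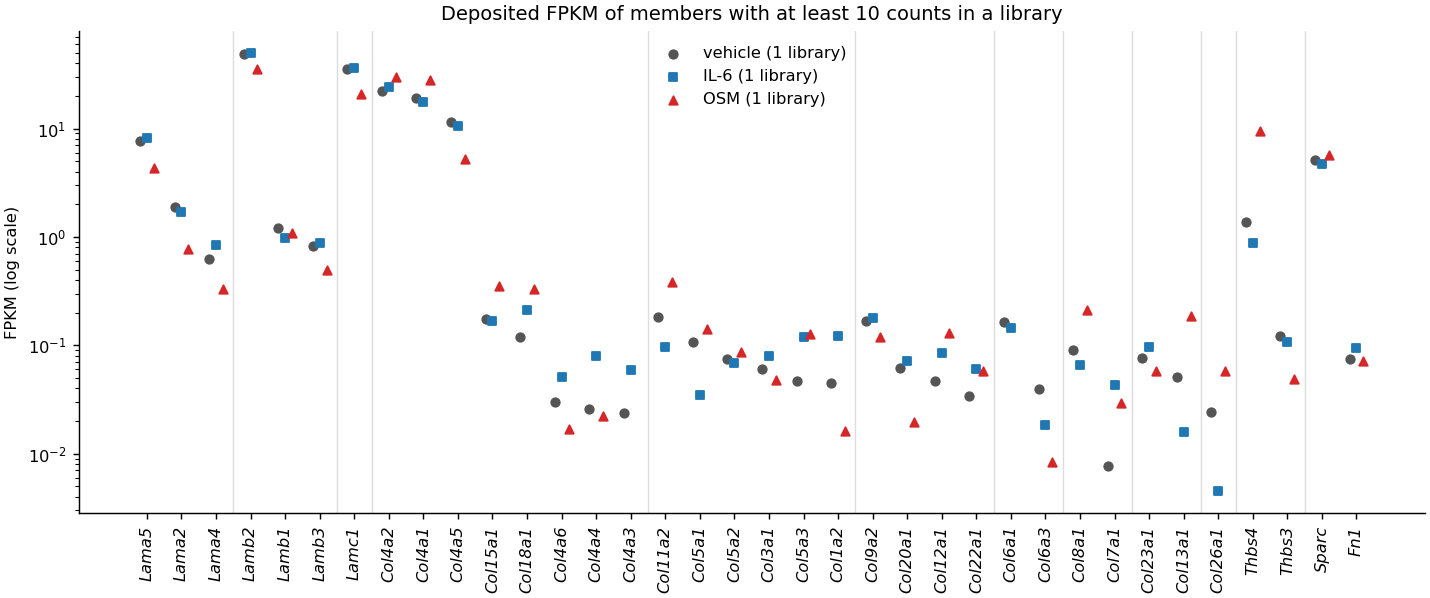
Deposited FPKM (log scale) of 36 members with at least 10 counts in a library, grouped by class, with 1 point per library and no replicates. Lamb2 is the highest of them in each library (48.6 FPKM with vehicle), Thbs4 stands at 9.46 FPKM with OSM against 1.37 with vehicle, and 2 values of 0 (Col6a1 and Col4a3 with OSM) are not drawn.

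With OSM against vehicle, Thbs4 was higher, Col4a1 and Col4a2 were moderately higher, and Col4a5 and most laminin chains were lower. Of 37 members with at least 10 counts over the pair, 1 was called higher (Thbs4), beside 3.74% of all 15537 genes compared, and 3 were called lower (Col4a5, Lama2 and Col6a1), beside 5.43%. Whole intervals lay above no change for 10 members, beside 33.4% of all genes, and below it for 9, beside 33.1%. The median log2 fold change was -0.06 over the 37 members and 0.0046 over all genes. It was 0.40 over the 25 collagens compared and -0.75 over the 8 laminins. After the length median of each member was taken off, these family medians were 0.62 and -0.40, and the calls were 2 higher (Thbs4 and Col12a1) and 1 lower (Col6a1). The median over all genes was then -0.059, and the shares of all genes called with this setting were not computed. Of the 23 members with fewer than 100 counts over the pair, 15 had intervals that included no change, so that a difference in them was mostly not detectable at this depth.

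**Figure D2:**
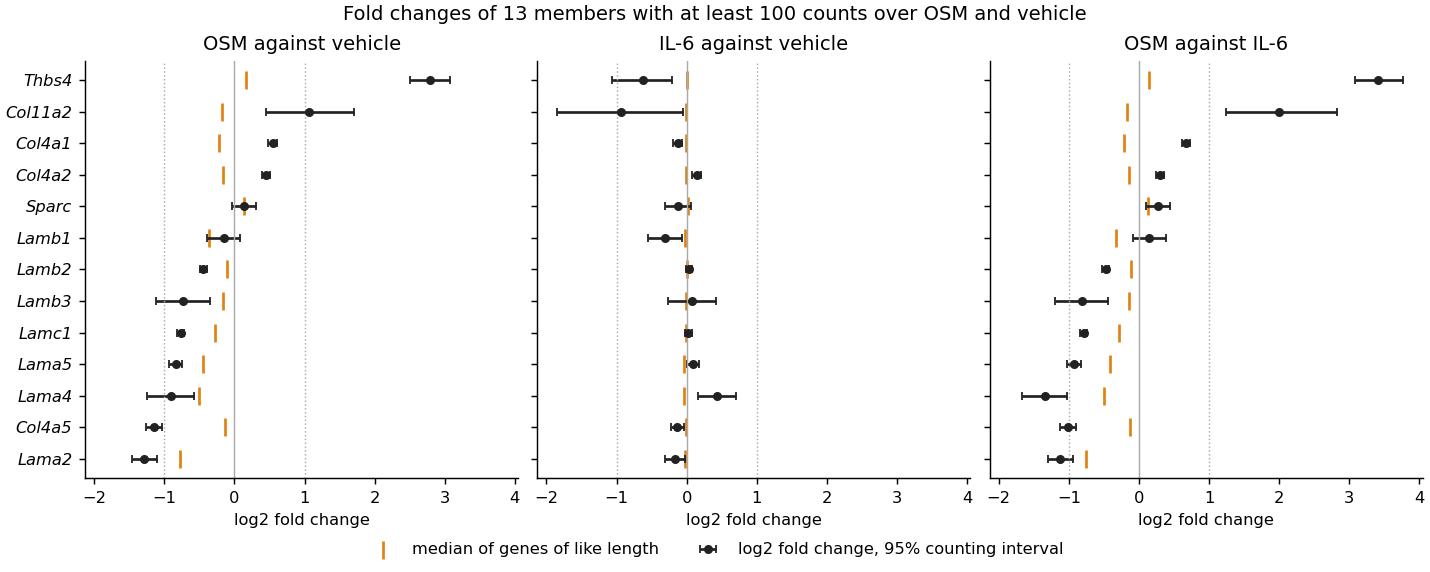
Log2 fold changes of 13 members with at least 100 counts over the OSM and vehicle libraries, in the 3 pairs of libraries. Points are log2 ratios of TMM-scaled counts, bars their 95% counting intervals, orange ticks the length medians and dotted lines 2-fold, and Thbs4 stands at 2.79 in the first panel while Lama2 stands at -1.28.

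Among the type IV chains, the pair Col4a1 and Col4a2 and the single chain Col4a5 went opposite ways with OSM. Col4a1 (chr8:11248423-11362826, minus strand, GRCm39) had 3649 counts with vehicle, 3577 with IL-6 and 6284 with OSM. Col4a2 (chr8:11362805-11499287, plus strand) had 3684, 4356 and 5938 counts in that order. Both chains, which form the common type IV trimer, were highest in the OSM library. Against vehicle, the log2 fold change with OSM was 0.54 (0.48 to 0.60) for Col4a1 and 0.45 (0.39 to 0.51) for Col4a2, while their length medians were -0.22 and -0.16. Col4a5 (chrX:140258381-140472230, plus strand), the chain that is mutated in X-linked Alport syndrome, had 1968, 1924 and 1052 counts. It was lowest in the OSM library, 2.21-fold below vehicle, or -1.15 (-1.25 to -1.04) on the log2 scale, beside a length median of -0.13. With the length median taken off it stood at -1.01 and was no longer called. Its share of the type IV FPKM was 21.9% with vehicle, 20.04% with IL-6 and 8.26% with OSM. The remaining chains Col4a3, Col4a4 and Col4a6, which join Col4a5 in the trimers of kidney, eye and other specialised membranes, were near 0, with at most 23 counts in a library. Col4a3 had 6 counts with vehicle, 16 with IL-6 and 0 with OSM.

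With IL-6, Col4a1 and Col4a2 differed in direction by small amounts, with log2 fold changes against vehicle of -0.13 (-0.20 to -0.06) and 0.14 (0.08 to 0.21). Their ratio within a library, counts per kb of Col4a1 over Col4a2, was 0.878 (0.839 to 0.920) with vehicle, 0.728 (0.697 to 0.761) with IL-6 and 0.938 (0.906 to 0.973) with OSM. The interval with IL-6 did not overlap those of the other libraries. The chains are transcribed head to head, and in the deposited annotation their 5′ ends share 22 bases. In GENCODE M39 their exons share 311 bases, 4.17% of the exon bases of Col4a1 and 4.33% of those of Col4a2. Since the sources used here do not say whether counting used the strand, reads in that stretch cannot be told apart. The other type IV genes are also paired head to head. In the deposited annotation, Col4a4 and Col4a3 lie 71 bases apart on chromosome 1, with 7 and 6 counts with vehicle. In GENCODE M39 their exons share 159 bases. Col4a6 and Col4a5 lie 1308 bases apart on chromosome X in the deposited annotation, with 6 and 1968 counts with vehicle.

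**Figure D3:**
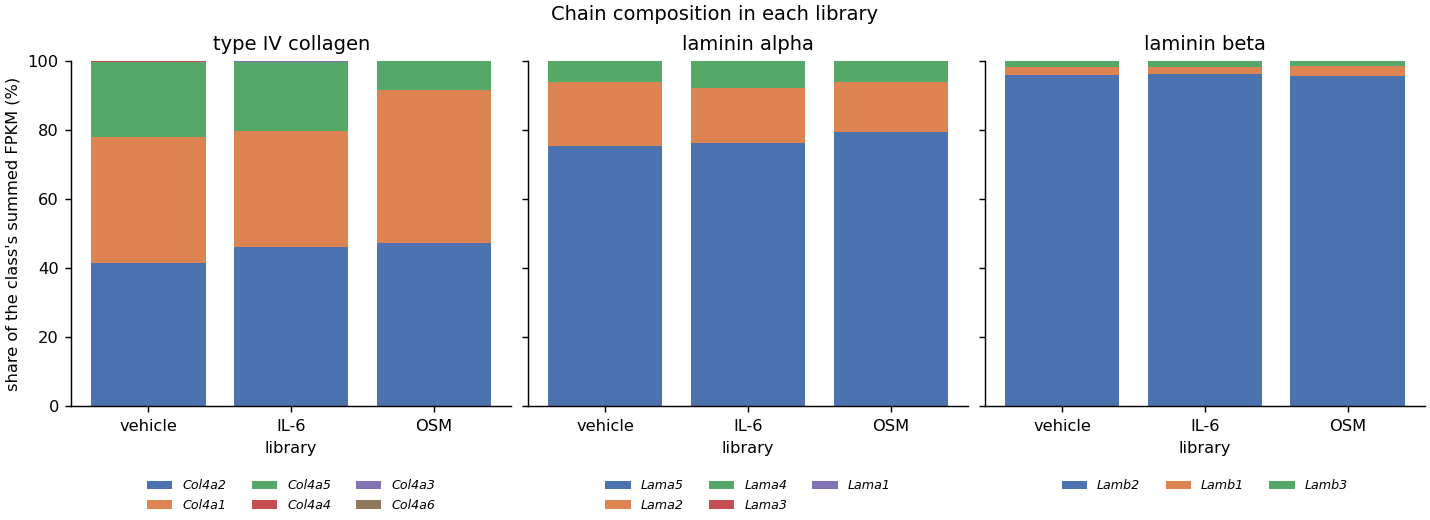
Share of each chain in the summed FPKM of type IV collagen, of the laminin alpha chains and of the laminin beta chains (percent) in the vehicle, IL-6 and OSM libraries, 1 library each. Col4a5 takes 8.26% of the type IV collagen with OSM against 21.9% with vehicle, while Lamb2 keeps between 95.7% and 96.4% of the beta chains.

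The coding sequences show how the type IV chains, expressed or not, differ from the fibrillar collagens. In the canonical GENCODE M39 transcripts, the longest unbroken run of Gly-X-Y triplets, read as a GGN codon followed by 2 other codons over and over, was 40 triplets in Col4a1, 66 in Col4a2 and 42 in Col4a5, with 23, 24 and 23 separate runs of at least 3 triplets. Over all 6 type IV collagens, those near 0 included, it was 39 to 66 triplets in 23 to 27 runs. The 11 fibrillar collagens had a longest run of 216 to 344 triplets in 2 to 5 runs. Other rare classes also had shorter runs, with a longest run of 32 to 113 in the 9 fibril-associated and 40 to 55 in the 4 transmembrane collagens. The 18 members that are not collagens had no run longer than 3. A stretch of 15 codons from the longest run is shown for 3 type IV chains and for Col1a2, which was near 0 in these cells, with the GGN glycine codons in capitals (GRCm39, coding strand, each within 1 exon: chr8:11297051-11297095, chr8:11479447-11479491, chrX:140439821-140439865 and chr6:4515210-4515254).
Col4a1: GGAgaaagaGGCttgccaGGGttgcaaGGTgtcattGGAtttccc
Col4a2: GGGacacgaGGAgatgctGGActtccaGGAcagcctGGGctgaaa
Col4a5: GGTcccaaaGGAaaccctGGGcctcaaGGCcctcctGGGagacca
Col1a2: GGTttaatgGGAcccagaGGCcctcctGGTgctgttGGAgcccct
The repeat itself is the same in all 4 stretches, and the type IV chains differ from Col1a2 in how often it is interrupted.

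The other basement membrane collagens, Col15a1 and Col18a1, which carry antiangiogenic C-terminal fragments, were rare and higher with OSM. Col18a1 had 21 counts with vehicle, 40 with IL-6 and 70 with OSM. Its log2 fold change against vehicle was 1.5 (0.77 to 2.27) with OSM and 0.83 (0.03 to 1.67) with IL-6. Its exons share 896 bases, 12.7% of its exon bases, with Slc19a1 on the other strand, which had 379, 347 and 752 counts. Col15a1 had 28, 29 and 67 counts, and differed with OSM by 1.02 (0.36 to 1.71) on the log2 scale. Neither was called.

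The most abundant alpha, beta and gamma laminin chains were Lama5, Lamb2 and Lamc1 in every library, and all of them were lower with OSM. Lamb2 (chr9:108356935-108367729, plus strand), the beta chain of muscle and vascular basement membranes, had 7475 counts with vehicle, 8178 with IL-6 and 6493 with OSM, or 48.6, 49.6 and 35.7 FPKM. Lamc1 (chr1:153094668-153208532, minus strand), the gamma chain of most laminins, had 7452, 8118 and 5187 counts, or 35.6, 36.2 and 21.0 FPKM. Lama5 (chr2:179818166-179867652, minus strand), the main alpha chain of adult endothelial and epithelial membranes, had 2209, 2515 and 1460 counts, or 7.67, 8.15 and 4.29 FPKM. For each of these genes the vehicle and IL-6 libraries were close and the OSM library was lowest. The log2 fold change with OSM against vehicle was -0.44 (-0.49 to -0.40) for Lamb2, -0.76 (-0.82 to -0.71) for Lamc1 and -0.84 (-0.94 to -0.74) for Lama5. Their length medians were -0.10, -0.27 and -0.44, so that each lay below genes of its length.

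Lama2 (chr10:26856032-27495754, minus strand) encodes the alpha chain of merosin, the laminin of striated muscle whose loss causes a congenital muscular dystrophy. It had 795 counts with vehicle, 761 with IL-6 and 386 with OSM, and was lowest with OSM. It was called, 2.43-fold below vehicle, or -1.28 (-1.46 to -1.11) on the log2 scale. At 16605 bases it is the longest of the laminins, its length median was -0.78, and with that taken off the difference was -0.51 and was no longer called. Lama4 (chr10:38841511-38986184, plus strand), an alpha chain of vessels and muscle, had 189, 273 and 119 counts, so that the order was IL-6, vehicle, OSM. Its log2 fold change was -0.91 (-1.25 to -0.57) with OSM and 0.43 (0.16 to 0.71) with IL-6, both against vehicle, and it was called only between the cytokine libraries, at -1.34 (-1.66 to -1.02) for OSM against IL-6 beside a length median of -0.50. Counts per kb of Lama2 over Lama4 were 3.06 (2.61 to 3.60) with vehicle, 2.03 (1.76 to 2.33) with IL-6 and 2.36 (1.91 to 2.92) with OSM. The exons of Lama4 share 806 bases, 5.13% of its exon bases, with Fam229b on the other strand, which had 45, 67 and 105 counts. The remaining alpha chains were absent or nearly so, Lama1 at 0 in every library and Lama3 with 2 counts with vehicle and 0 in the others.

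The minor beta chains did not both follow. Lamb3 (chr1:192890007-193026186, plus strand), known from epithelial laminin, had 138, 156 and 98 counts, and OSM differed from vehicle by -0.74 (-1.12 to -0.35) on the log2 scale. Lamb1 (chr12:31315233-31379643, plus strand), the widespread beta chain, had 305, 265 and 324 counts and a log2 fold change of -0.15 (-0.38 to 0.08), an interval that includes no change. Both overlap exons on the other strand. Lamb1 shares 303 bases, 2.82% of its exon bases, with Dld, which had 13793, 14087 and 13916 counts. Lamb3 shares 119 bases, 1.45% of its exon bases, with G0s2, which had 112, 147 and 86 counts. Lamb1 over Lamb2 per kb was 0.0250 (0.0222 to 0.0281) with vehicle, 0.0199 (0.0175 to 0.0225) with IL-6 and 0.0306 (0.0273 to 0.0342) with OSM. In all, 6 of the 8 laminins compared had intervals wholly below no change with OSM against vehicle, beside 33.1% of all genes, and none above it, beside 33.4%. With the length median taken off, 6 lay below and 1 above, and the shares over all genes with this setting were not computed. Lamc3 had 2 counts with OSM and 0 in the other libraries.

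Thbs4 was the member that differed most from vehicle with OSM among those with at least 100 counts over the pair. It encodes thrombospondin 4, a matrix protein of tendon and muscle that is known from stressed myocardium, and lies at chr13:92888098-92931326 on the minus strand. The gene had 114 counts with vehicle, 79 with IL-6 and 929 with OSM, or 1.37, 0.886 and 9.46 FPKM. The OSM library stood far above the others, and the gene moved from rank 8632 of the protein-coding genes with vehicle to rank 3764 with OSM. It was 6.89-fold higher with OSM than with vehicle, or 2.79 (2.50 to 3.08) on the log2 scale, beside a length median of 0.16. Against IL-6 it was 10.7-fold higher, or 3.41 (3.08 to 3.76). With IL-6 the gene was lower than with vehicle, at -0.63 (-1.06 to -0.20). Among the genes of the deposited annotation, none had an exon in GENCODE M39 that overlapped those of Thbs4.

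The other thrombospondins were close to 0. Thbs1, the secreted activator of latent TGF-beta, had 8 counts with vehicle, 7 with IL-6 and 1 with OSM. Thbs2 had 6, 4 and 1 counts, and Thbs3 had 15, 14 and 7. Each was lowest with OSM, the reverse of Thbs4, but the only interval that could be given for that pair, for Thbs3, ran from -2.88 to 0.04 on the log2 scale and includes no change. The exons of Thbs3 share 347 bases, 7.11% of its exon bases, with Mtx1 on the other strand, which had 172, 242 and 405 counts.

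The 250 bases before the start of Thbs4 are shown as the upstream region of the member that was higher, those of Col4a5 as the upstream region of a member that was lower, and those of Lamb2 as those of the most abundant member and a region that holds a STAT type motif. They were read from GRCm39 at chr13:92931327-92931576 (minus strand), chrX:140258131-140258380 (plus strand) and chr9:108356685-108356934 (plus strand), each before the gene start of the deposited annotation. Capitals mark TTCNNNGAA, the palindrome that STAT dimers are known to bind, which reads the same on both strands and was searched from 250 bases before to 50 bases after each start.
Thbs4: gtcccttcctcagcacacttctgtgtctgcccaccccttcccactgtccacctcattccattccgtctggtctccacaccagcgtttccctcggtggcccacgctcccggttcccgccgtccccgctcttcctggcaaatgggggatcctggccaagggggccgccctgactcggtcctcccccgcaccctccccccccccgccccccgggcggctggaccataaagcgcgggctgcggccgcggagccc
Col4a5: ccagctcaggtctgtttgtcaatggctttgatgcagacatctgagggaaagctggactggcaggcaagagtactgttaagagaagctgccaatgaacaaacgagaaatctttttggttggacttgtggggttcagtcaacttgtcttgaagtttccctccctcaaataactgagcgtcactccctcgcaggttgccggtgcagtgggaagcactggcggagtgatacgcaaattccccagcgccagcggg
Lamb2: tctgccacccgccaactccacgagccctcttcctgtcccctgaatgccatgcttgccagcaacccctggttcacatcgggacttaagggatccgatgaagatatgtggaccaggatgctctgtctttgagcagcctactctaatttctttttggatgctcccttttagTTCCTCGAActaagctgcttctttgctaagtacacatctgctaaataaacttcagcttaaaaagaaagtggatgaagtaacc
The motif occurred in the windows of 5 of the 62 members (8.06%), which were Lamb2 at position -82 from the start, Col6a1, Col17a1, Col28a1 and Col6a5, beside 1838 of 21906 windows of all protein-coding genes (8.39%). It did not occur in those of Thbs4, Col4a1, Col4a2 or Col4a5. These letters in a window are a description, and their absence from 300 bases says nothing about a factor that binds elsewhere or to other letters. For Lamb2 the canonical GENCODE M39 transcript starts further downstream, at 108357049, than the deposited gene start. Only 13 of the 62 members have the same gene bounds in both annotations, so other windows can also lie away from a canonical start. The canonical start is at 192984301 for Lamb3, beside a deposited start of 192890007, and at 11362509 for Col4a2, beside 11362805.

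Of the other matrix genes, only Sparc was expressed above an FPKM of 1. Sparc, a collagen-binding matricellular protein, had 493 counts with vehicle, 484 with IL-6 and 643 with OSM, or 5.14, 4.72 and 5.68 FPKM. Its log2 fold change was 0.14 (-0.03 to 0.31) with OSM and -0.13 (-0.31 to 0.06) with IL-6 against vehicle, and both intervals include no change. Fn1, the fibronectin gene, had 22, 30 and 25 counts, and Postn, known as a marker of activated fibroblasts, had 4, 4 and 0. Neither could be shown to differ at this depth.

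The collagens of interstitial fibres were near the limit of detection in all libraries. The 11 fibrillar collagens together had 120 counts with vehicle, 130 with IL-6 and 186 with OSM, or 0.569, 0.528 and 0.805 summed FPKM. Col1a1, a chain of type I collagen, had 6, 0 and 0 counts. Its partner Col1a2 had 14, 41 and 6, and Col3a1, the chain of type III collagen, had 15, 21 and 14. Col1a2 was highest with IL-6, with a log2 fold change of 1.45 (0.55 to 2.44) against vehicle, and was called lower with OSM against IL-6, at -2.91 (-4.44 to -1.67). In the IL-6 library, Ddr2, a collagen receptor of fibroblasts, had 90 counts beside 28 with vehicle and 20 with OSM, and the mesothelial marker Msln had 33 counts beside 1 and 13. The fibroblast markers went both ways. Dpt, with 2, 16 and 8 counts, and Pi16, with 0, 6 and 3, were also highest with IL-6, whereas Pdgfra, with 40, 18 and 34, was lowest there and Dcn had 49, 48 and 131. Of the 7 compared between IL-6 and vehicle, 0 were called in either direction, with a median of -0.24. The part of other cell types in the Col1a2 counts was not tested. Counts per kb of Col1a1 over Col1a2 were 0.811 (0.256 to 2.25) with vehicle, and the upper limits with IL-6 and OSM, where Col1a1 was at 0, were 0.178 and 1.61.

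Several rare collagens had higher counts with OSM. Col11a2, a chain of cartilage type fibrils, had 32 counts with vehicle, 18 with IL-6 and 79 with OSM. OSM gave a log2 ratio of 1.06 (0.45 to 1.70) against vehicle and 1.99 (1.24 to 2.82) against IL-6, and the second was called. Col13a1, a transmembrane collagen of neuromuscular junctions, had 6, 2 and 26 counts, with 1.87 (0.56 to 3.44) against vehicle and 3.56 (1.56 to 6.68) against IL-6, where it was called. Col12a1, a fibril-associated collagen, had 18, 35 and 59 counts and 1.47 (0.69 to 2.32) with OSM against vehicle. At 15228 bases it had a length median of -0.73, and with that taken off the interval, 1.42 to 3.05, lay beyond 2-fold. Col8a1, a network-forming collagen of vessels, had 18, 14 and 49 counts and 1.20 (0.40 to 2.07). Col5a3, a chain of type V collagen, had 8, 22 and 26 counts and was higher with both cytokines against vehicle, at 1.46 (0.27 to 2.81) with OSM and 1.36 (0.14 to 2.74) with IL-6. Its partner Col5a1 went the other way with IL-6, with 23, 8 and 36 counts and a log2 ratio of IL-6 to vehicle of -1.62 (-2.99 to -0.41). Col7a1, the anchoring fibril collagen of skin, had 2, 12 and 9 counts and was higher with IL-6 against vehicle, at 2.49 (0.32 to 5.69), an interval that spans most sizes of difference. Col5a2, Col9a2, Col16a1, Col20a1, Col22a1 and Col23a1 had between 3 and 25 counts in each library, with intervals that included no change wherever they could be compared. Col2a1, Col10a1, Col14a1, Col17a1, Col19a1 and Col26a1 had at most 14 counts in any library and 0 or 1 in at least 1 of them. Altogether 9 of the 25 collagens compared had intervals wholly above no change with OSM against vehicle, a share close to the 33.4% of all genes, and 3 below (Col4a5, Col6a1 and Col6a3), beside 33.1%. The summed FPKM of fibroblast, endothelial, smooth muscle and pericyte, and macrophage markers was also highest in the OSM library. Of those compared, 1 of 8 fibroblast markers (Cd248), 1 of 12 endothelial markers (Erg), 0 of 7 smooth muscle and pericyte markers and 0 of 4 macrophage markers were called higher with OSM against vehicle, beside 3.74% of all genes, and none was called lower. Their part in the collagen counts was not tested.

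Of the 6 genes of type VI collagen, the beaded microfibril around cells, 2 could be compared for OSM against vehicle. Both, Col6a1 and Col6a3, had intervals wholly below no change. Col6a1 (chr10:76544626-76562002, minus strand) had 18 counts with vehicle, 17 with IL-6 and 0 with OSM. It was called lower with OSM, since the intervals of the log2 ratio ended at -2.38 against vehicle and -2.19 against IL-6. With the floor of 3 counts per library in place of 0, and no allowance for the counting error of the other library, it was 7.09-fold lower than with vehicle and 6.25-fold lower than with IL-6. Col6a3 had 12, 6 and 3 counts and a log2 fold change of -2.24 (-4.71 to -0.35) with OSM against vehicle. Col6a2, which needs Col6a1 for assembly, had 2, 1 and 4 counts, and Col6a6 had 0, 0 and 6. Counts per kb of Col6a1 over Col6a2 were 17.1 (4.10 to 152) with vehicle and 32.3 (5.06 to 1351) with IL-6, and at most 2.88 with OSM, where Col6a1 was at 0. The summed FPKM of the Schwann cell markers and of the epicardial and mesothelial markers was also lowest with OSM. The epicardial and mesothelial markers went both ways. Krt19, with 18, 20 and 0 counts, was called lower with OSM against vehicle, whereas Msln had 1, 33 and 13 counts and Upk3b 6, 12 and 14, and the median of the 3 compared was 0.98. The part of these cells in the Col6a1 counts was not tested.

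With IL-6 against vehicle, no member was called. That was 0 of 38, beside 1.77% of 15472 genes higher and 1.74% lower. Intervals lay wholly above no change for 9 members, beside 19.6% of all genes, and wholly below for 8, beside 19.1%. The median over the 38 members was 0.027, and that over all genes was -0.0019. Of the 13 members in the plot of fold changes, Col11a2 was lowest at -0.93 (-1.85 to -0.05), next to Thbs4 at -0.63, and Lama4 highest at 0.43, while Lamb2 stood at 0.03 (-0.02 to 0.08) and Lamc1 at 0.02 (-0.02 to 0.07). For those abundant chains the intervals leave a difference of at most 0.08 on the log2 scale from counting error.

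With OSM against IL-6, 3 of 38 members were called higher (Thbs4, Col11a2 and Col13a1), beside 4.24% of 15544 genes, and 4 were called lower (Lama4, Col1a2, Col6a1 and Col4a3), beside 5.42%. Intervals lay wholly above no change for 12 members, beside 33.2% of all genes, and below for 11, beside 33.2%. The comparisons share libraries, so the values are given side by side. Vehicle entered both contrasts against vehicle, OSM both contrasts of OSM, and IL-6 its contrast with vehicle and this one. Col4a5 stood at -1.15 with OSM against vehicle and at -1.01 (-1.12 to -0.90) against IL-6, and Lama2 at -1.28 and -1.12 (-1.30 to -0.94). Col4a3, with 16 counts against 0, was 5.88-fold lower by the same floor of 3 counts, with no allowance for the counting error of the 16. Its interval ended at -2.09 on the log2 scale. With the length medians taken off, 6 members were called higher (Thbs4, Col11a2, Col8a1, Col5a1, Col13a1 and Col26a1) and 3 lower (Col1a2, Col6a1 and Col4a3). The shares of all genes called with this setting were not computed.

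Several calls with OSM, those of Col4a5 and Lama2 among them, were lost with the length median taken off. For Col4a5 the length median was -0.13, and the log2 fold change against vehicle went from -1.15 to -1.01. For Lama2 it was -0.78, and the fold change went from -1.28 to -0.51. The part of gene length in these differences was not tested. The members are long, with a median of 7833 bases among the 37 compared with OSM against vehicle and 3912 over all genes compared. The alpha laminins, from 11388 bases (Lama5) to 16605 bases (Lama2), fall where the length medians run from -0.44 to -0.78. Of the 37 members, 22 lay above their length median, beside 7126 of all 15537 genes compared. The median difference from the length median was 0.17 over the members and -0.059 over all genes. As counted, without the length median taken off, the median over the members was -0.06. The sign of the median over all members thus turned with this setting. Those of the collagens and of the laminins did not.

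**Figure D4:**
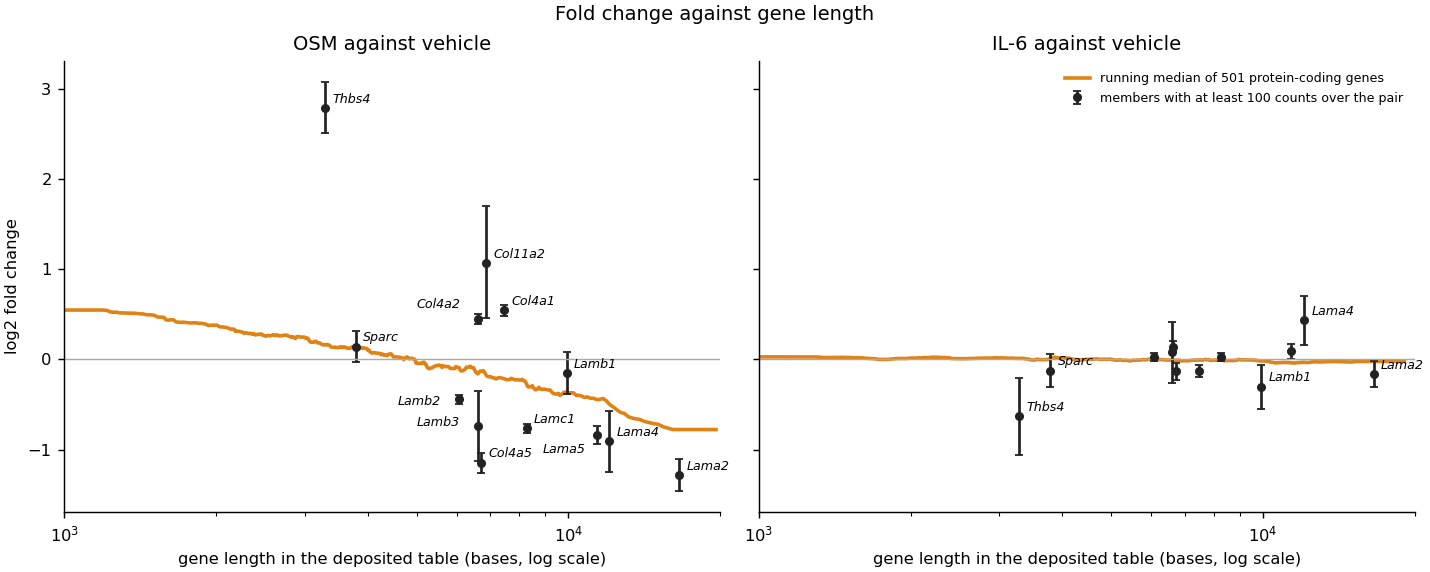
Log2 fold change against gene length (bases, log scale) for OSM and for IL-6 against vehicle, with points and 95% counting intervals for members with at least 100 counts over the pair and an orange line for the running median of protein-coding genes. With OSM the line falls from 0.16 at Thbs4 to -0.78 at Lama2, while with IL-6 it stays near 0.

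Genes that make and modify collagen were mostly not called. In this and the lists that follow, the shares called over all genes were 3.74% higher and 5.43% lower for OSM against vehicle. Of 34 such genes, 28 were compared for OSM against vehicle, of which 0 were called higher and 1 lower, with a median of 0.023. The most abundant, 2 of the few listed genes with a higher FPKM than Col4a2, were P4hb, the disulfide isomerase subunit of prolyl 4-hydroxylase, with 19212 counts with vehicle, 20913 with IL-6 and 26504 with OSM, and Serpinh1, the collagen chaperone HSP47, with 5945, 6222 and 6828. The called gene was P3h2, a prolyl 3-hydroxylase of type IV collagen, with 62, 61 and 21 counts and a log2 ratio of -1.80 (-2.59 to -1.07). With IL-6 against vehicle 1 of 28 was called lower (Loxl3, with 11 counts and 0), and with OSM against IL-6 none of 26. Of 12 regulators of collagen transcription and TGF-beta signalling, 11 were compared with OSM against vehicle and none was called in either direction, with a median of 0.23. Ski, a repressor of TGF-beta signalling, had 2996, 2758 and 2442.

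Of the genes for other basement membrane proteins, perlecan and Nid2 were lower with OSM. Of 12 listed, 10 were compared, 0 were called higher and 2 lower, with a median of 0.03. Hspg2, the heparan sulfate proteoglycan perlecan, had 2585 counts with vehicle, 2984 with IL-6 and 1273 with OSM, a log2 ratio to vehicle of -1.26 (-1.36 to -1.17) beside a length median of -0.72, and with that taken off it was no longer called. Nid2, a nidogen that links laminin to type IV collagen, had 23, 33 and 5 counts and -2.44 (-4.19 to -1.02), while its relative Nid1 had 30, 28 and 43. Fbln1, a fibulin of basement membranes and fibroblasts, had 269, 228 and 388 counts.

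The receptors of these matrix proteins held both higher and lower genes. Of 26 listed, 22 were compared for OSM against vehicle, with 2 called higher, 1 lower and a median of -0.13. Itga7, the laminin-binding integrin alpha chain of muscle, had 11437 counts with vehicle, 12008 with IL-6 and 36331 with OSM. Its log2 fold change was 1.43 (1.40 to 1.46), beside a length median of -0.24. Itgb1, its beta partner, had 12591, 13181 and 19798 counts and 0.41 (0.38 to 0.44). Sdc4, a heparan sulfate syndecan, had 440, 416 and 1956 counts and 1.91 (1.76 to 2.06). Dag1, which encodes dystroglycan, the other laminin receptor of muscle, was in contrast lower at 8820, 9425 and 5371 counts, with -0.96 (-1.01 to -0.91), and was not called. Cacna2d1, a calcium channel subunit that binds thrombospondins, was called lower at 4875, 5191 and 2728 counts, with -1.08 (-1.15 to -1.01) beside a length median of -0.55, and with that taken off it was no longer called. Cd36, a thrombospondin receptor and fatty acid transporter, had 30126, 31335 and 22613 counts and -0.66 (-0.68 to -0.63).

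Of 29 further matrix genes, 18 were compared for OSM against vehicle, with 3 called higher, 2 lower and a median of 0.00. Ccn4, a matricellular target of Wnt signalling, had 327 counts with vehicle, 330 with IL-6 and 1135 with OSM, or 1.55 (1.38 to 1.74). Ccn1, another matricellular CCN protein, was the most abundant of the list with 1217, 1384 and 1180 counts. Efemp2, a fibulin of elastic fibres, had 9, 31 and 49 counts, and Eln, the elastin gene, had 0, 0 and 12. Vcan, the proteoglycan versican, had 10, 24 and 0, and Prelp had 14, 0 and 0. The last 4 genes rest on few counts in each library.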

How the data were processed

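Whole-number counts per gene and FPKM values were deposited by the authors for 1 library each of vehicle-, IL-6- and OSM-treated ACMs. The submitters' processing notes list fastp, HISAT2 2.2.1, featureCounts 2.0.6, edgeR 4.0.16 and mm39, and the study's methods name other versions of the last tools. Whether the strand was used in counting was not stated. The deposited FPKM is the count over the deposited gene length and 1 constant per library.

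Pairs of libraries were scaled by TMM (edgeR 4.0.16, R 4.3.3). Genes with at least 10 counts over a pair were compared by the log2 ratio with its 95% Clopper-Pearson interval, and called where the whole interval lay beyond 2-fold. A library at 0 was set to a floor of 3 counts for a bound. The calling rule was tested on simulated data. With 1 library per condition no test was run, and pooling leaves the spread between cultures unknown. Alternatives were DESeq2 1.42.0 size factors, total counts, minimums of 1 and 100 counts, the length median (protein-coding genes with a mean count of at least 100), thinning of the larger library, other thresholds, and FPKM ratios with a pseudocount of 0.1. Sequences, exons and windows came from GRCm39 and GENCODE M39, which held all 62 member identifiers. Identity between thrombospondin proteins was planned and not computed.

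The rule for full values took in 20 members: those called in any pair, the 10 highest in FPKM with vehicle, the extremes of each class with at least 100 counts, and the chains of the ratios. Other members and genes of the lists were named beside them, some after their values were seen. Members, lists and alternatives were chosen with earlier results of these data known. Values of some genes are not reported here.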

Additional observations from a re-analysis of the deposited data

How the results depend on the processing

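No paired analysis was possible because each condition had 1 library. For OSM against vehicle, the count of 4 members called stayed within 3 to 4 under DESeq2 size factors, total counts, other count minimums, the length median and thinning. It was 17 by the point estimate beyond 2-fold, 8 with whole intervals beyond 1.5-fold and 19 beyond no change. Beyond no change, the shares of all genes were 33.4% higher and 33.1% lower. For the point estimate, for 1.5-fold and for the other alternatives, no share over all genes was computed in any pair. With the length median taken off, Col4a5 (-1.01) and Lama2 (-0.51) were no longer called and Col12a1 was. For IL-6 against vehicle, the count of 0 became 7 by the point estimate and 17 beyond no change. Beyond no change, 19.6% of all genes were higher and 19.1% lower. For OSM against IL-6, the count of 7 was 2 with at least 100 counts, where fewer members are compared. It was 17 by the point estimate, 16 beyond 1.5-fold and 23 beyond no change, beside 33.2% of all genes higher and 33.2% lower beyond no change. The count was 8 with total counts, which added Lama2 (-1.20), and 9 with the length median off, where Lama4 (-0.84) was lost. FPKM ratios with the pseudocount took Col1a2 (-0.93) and Col4a3 (-0.67) under 2-fold there. The median over the members ranged from -0.30 to 0.17 for OSM against vehicle, from -0.13 to 0.05 for IL-6 against vehicle and from -0.31 to 0.076 for OSM against IL-6. Chain ratios were the same from FPKM. Depth limits the 25 members under 10 counts in every library, and without replicates no interval covers the spread between cultures.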
